A study of Homo sapiens with 8 samples.

Results

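The interferon response genes described here are 35 genes, chosen by symbol, of the 19475 entries of an expression table from HCT116 cells, a human colorectal carcinoma line. All 35 symbols were in the table, and 123 of the 70751 m6A peaks in 4 peak lists carried one of these names. The cells were given PBS (Control) or Fusobacterium nucleatum, a bacterium found in colorectal tumours, for 2 h at 100 bacteria per cell, and both groups came from the same unmodified line. m6A, a methyl group on adenosines of mRNA, was located with an antibody: poly(A) RNA was fragmented, the bound fragments were sequenced as the IP library, and the whole pool as the input library. Control and F. nucleatum each had 2 IP and 2 input libraries, described in the methods as biological replicates. Expression values are FPKM, fragment counts scaled by transcript length and library total, of the 4 input libraries.

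Cells make interferons after cytosolic sensors such as RIG-I (DDX58), MDA5 (IFIH1) and LGP2 (DHX58) or Toll-like receptors have met foreign nucleic acids. Type I interferons bind the receptor chains IFNAR1 and IFNAR2, the bound kinases JAK1 and TYK2 phosphorylate STAT proteins such as STAT2, and these enter the nucleus with IRF9 and switch on the antiviral genes ISG15, IFIT, OAS and MX through a promoter element called ISRE. NF-κB is another branch of the response to microbes, which raises chemokines, adhesion molecules and its own inhibitors. The question was whether an interferon response stood beside the NF-κB response in the cells given the bacterium, and whether the m6A peaks of the interferon genes differed.

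IRF1 was the 1 interferon response gene whose level rose past the test, and none of the antiviral effectors tested was called. Of the 35 members, IFI44L was listed at 0 in every library, 9 had a mean under 1 FPKM and were not tested, and 25 were tested. Among the 25, 1 was called higher and 0 lower by limma at a Benjamini-Hochberg adjusted p under 0.05, against 89 of all 11088 genes tested (0.803%), 74 of them higher (0.667%). At an unadjusted p under 0.05, 3 members were higher (IRF1, BST2 and IRF7) and 1 was lower (ISG15), where 7.04% of all tested genes were higher and 6.45% lower. The median log2 fold change of the 25 was 0.09, or 0.08 without IRF1, and that of all tested genes was 0.01. These log2 fold changes are on the scale log2(FPKM + 1), which understates the change of low genes.

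IRF1, a transcription factor that binds interferon-responsive promoters and is itself a textbook target of both interferon signalling and NF-κB, had 2.77 and 2.34 FPKM in Control 1 and 2, and 7.72 and 7.50 FPKM in F. nucleatum 1 and 2. The groups lay far apart, and each pair of replicates was close. The mean was 2.56 ± 0.304 FPKM (SD, n = 2) in Control and 7.61 ± 0.154 FPKM (SD, n = 2) in F. nucleatum, a ratio of 2.98. The log2 fold change was 1.28 (SE 0.09, 95% interval 1.04 to 1.51, limma adjusted p = 0.00852). In a fit without F. nucleatum 1 or without F. nucleatum 2 the change was 1.26 or 1.30, and the limma adjusted p was 0.111 or 0.104. In bulk RNA, more transcripts per cell and more cells with the transcript cannot be told apart. On the canonical transcript, 16.3% of the exon bases of IRF1 lie opposite exons of antisense genes such as IRF1-AS1.

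The promoter of IRF1 is shown because IRF1 was the called member, and because it carries letters of elements from both pathways. It is on the minus strand of chromosome 5, chr5:131826466-131826715 on GRCh37 (hg19), the 250 bases before the start that RefSeq lists for GRCh38.p14, found on GRCh37 by an exact match. The capitals mark, from left to right, a GAS element (TTCNNNGAA, an element of interferon-γ-responsive promoters), whose first base lies 124 bases before the start, and a match to the κB consensus, 50 bases before the start.
IRF1 promoter: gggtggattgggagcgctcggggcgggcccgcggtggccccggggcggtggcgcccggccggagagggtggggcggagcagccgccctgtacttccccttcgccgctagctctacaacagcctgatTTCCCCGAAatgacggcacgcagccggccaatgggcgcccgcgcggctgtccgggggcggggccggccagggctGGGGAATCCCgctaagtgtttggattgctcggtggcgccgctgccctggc

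The other members with a promoter in the RefSeq table were searched in the same way, over 300 bases (250 before and 50 after each listed start) and on both strands. Of the 26 members found there, 15 (57.7%) held ISRE, spelled GAAANNGAAA, at a listed start, where 4.38% of the promoters of 27305 symbols did. A GAS element was found in 7 (26.9%, against 9.38%) and the κB consensus in 5 (19.2%, against 7.09%). None of the 10 tested members with ISRE was called, where 1 of all 308 tested genes with ISRE (0.325%) was called higher. The median log2 fold change was 0.08 in these 10 members and also 0.08 in the 10 tested members without ISRE. IRF1 was not alone in carrying elements of both pathways, since BST2, IFIH1 and OAS3 held ISRE and the κB consensus. A match to the letters is a description and not a bound site.

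The ISRE of 3 antiviral genes and the κB match of DDX58 are shown in capitals with 8 bases on either side, since these genes stand for the 2 kinds of promoter. ISG15 is on chr1:948762-948787, plus strand, IFI6 on chr1:27998801-27998826, minus strand, and IFIT5 on chr10:91174272-91174297, plus strand, where the element is read on the opposite strand and so appears as TTTCNNTTTC. The window of DDX58 (chr9:32526253-32526278) is on the minus strand, and its κB consensus is read on the strand opposite the gene. All 4 windows are on GRCh37.
ISG15: gggaaaggGAAACCGAAActgaagcc
IFI6: agagagggGAAAATGAAActgcagag
IFIT5: ctattaagTTTCGGTTTCtgaagctt
DDX58: atttcctcGGAAAATCCCtgctttcc

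The 5 members with a κB match were IRF1, DDX58, IFIH1, OAS3 and BST2, and in all 5 both F. nucleatum libraries lay above both Control libraries. Among the 21 members without a match, 5 were higher in that way and 2 lower. This split was looked at after the values were known and was not tested. The member counts include genes under the filter, such as IFIH1, OAS1 and IFI44, since 4 of the 5 and 16 of the 21 were tested. The shares that follow cover tested genes only. Over all tested genes with a promoter in the table, 31.9% of 788 with a κB match and 25.4% of 8010 without lay higher in that way. Of these, 17 (2.16%) with a match and 45 (0.562%) without were called higher by limma.

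The receptor chains and kinases were present and not called. IFNAR1 had 3.49 and 3.80 FPKM in Control and 4.65 and 3.99 FPKM in F. nucleatum, so the groups did not overlap, but the log2 fold change of 0.19 did not pass (95% interval -0.06 to 0.45). IFNAR2 had 4.73 and 4.02 FPKM in Control and 4.67 and 5.31 FPKM in F. nucleatum, and JAK1 had 12.7 and 14.5 against 14.8 and 14.4 FPKM. In both genes the groups overlapped. TYK2 lay between 16.6 and 17.6 FPKM in every library, with a log2 fold change of -0.01. Of the exon bases of IFNAR2, 49.1% are shared with the readthrough gene IFNAR2-IL10RB, so its reads could be divided between both.

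The RNA sensors were low. DDX58, which encodes RIG-I, had 3.32 and 3.51 FPKM in Control and 4.25 and 3.97 FPKM in F. nucleatum, with a log2 fold change of 0.21 (95% interval -0.0036 to 0.43, limma adjusted p = 0.377), and an unnamed gene model covers 96.6% of its exon bases on the same strand. IFIH1, which encodes MDA5, had 0.752 and 0.723 FPKM in Control and 1.43 and 0.997 FPKM in F. nucleatum, a ratio of 1.64, and was not tested because its mean over the libraries was under 1 FPKM. Both sensors were higher in each F. nucleatum library than in each Control library. DHX58, which encodes LGP2, lay between 0.220 and 0.388 FPKM, lower in both F. nucleatum libraries.

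Of the 6 transcription factors, all tested, IRF1 alone was called. IRF7, which amplifies type I interferon production and is itself interferon-inducible, had 3.93 and 3.99 FPKM in Control and 5.10 and 4.75 FPKM in F. nucleatum. The groups did not overlap, and the log2 fold change was 0.26 (SE 0.08, 95% interval 0.05 to 0.46, limma adjusted p = 0.307). STAT2, a part of the ISRE-binding complex, lay between 6.80 and 7.26 FPKM in Control and between 7.29 and 8.77 FPKM in F. nucleatum. IRF9, which gives that complex its DNA contact, had 8.61 and 9.13 against 8.45 and 8.95 FPKM, and IRF3, the factor that sensors activate, had 25.4 and 19.9 against 22.7 and 22.0 FPKM. Those groups overlapped, and their log2 fold changes were -0.02 and -0.01. The change of IRF3 had the opposite sign after GC correction and quantile normalization, and the sign of both genes turned when single libraries were left out. IRF2, which opposes IRF1 at shared sites, lay between 1.04 and 1.54 FPKM with overlapping groups.

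The antiviral effectors were either at a level that did not move past the test or near the floor of the table. ISG15, a ubiquitin-like protein conjugated to others after interferon and the most abundant member (mean of 160 FPKM, above 96.4% of the genes tested), had 171 and 170 FPKM in Control and 145 and 153 FPKM in F. nucleatum. Both F. nucleatum libraries were lower, by 12.4% of the mean, and the limma adjusted p was 0.267 at a log2 fold change of -0.19 (SE 0.05, 95% interval -0.32 to -0.06). BST2, which encodes tetherin, a protein that holds budding viruses at the cell surface, had 0.865 and 0.649 FPKM in Control and 1.41 and 1.18 FPKM in F. nucleatum. The groups did not overlap, the log2 fold change was 0.39 (SE 0.12, 95% interval 0.10 to 0.68, limma adjusted p = 0.287), and BST2 passed the filter on low values through its F. nucleatum libraries alone.

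The IFIT proteins bind foreign RNA. IFIT5 had 8.03 and 7.05 FPKM in Control and 7.17 and 6.83 FPKM in F. nucleatum, and IFIT1 lay between 1.11 and 1.38 FPKM, both with overlapping groups. IFIT2 and IFIT3 lay between 0.385 and 0.619 FPKM and were not tested. None of the 4 was higher in both F. nucleatum libraries than in both Control libraries.

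The OAS proteins make a messenger that switches on RNase L, and the MX proteins trap viral particles. OAS3 had 5.35 and 5.45 FPKM in Control and 5.77 and 5.89 FPKM in F. nucleatum, a log2 fold change of 0.09 that did not pass, although the groups did not overlap. OASL had 4.62 and 4.56 against 5.40 and 3.88 FPKM, so its F. nucleatum replicates lay on both sides of Control. OAS1 stayed at or below 0.204 FPKM, OAS2 at or below 0.008 FPKM, MX1 at or below 0.354 FPKM and MX2 at or below 0.0302 FPKM in every library, and none of these was tested. OAS1 had 0.0725 FPKM in Control 1 and was listed at 0 in Control 2, below its 0.204 and 0.192 FPKM in F. nucleatum.

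Among the IFI genes, IFI6, a mitochondrial and endoplasmic reticulum protein, lay between 21.4 and 26.3 FPKM, IFI35 between 4.62 and 5.45 FPKM and IFI27 between 1.18 and 2.35 FPKM, each with overlapping groups. IFI44 had 0.346 and 0.237 FPKM in Control, was listed at 0 in F. nucleatum 1 and had 0.130 FPKM in F. nucleatum 2. ADAR, an enzyme that edits double-stranded RNA, lay between 25.5 and 27.4 FPKM, and EIF2AK2, which encodes the kinase PKR that halts translation, between 3.40 and 3.80 FPKM. The ubiquitin ligases TRIM25, which acts on RIG-I, and TRIM21, an antibody receptor of the cytosol, lay between 22.4 and 23.9 FPKM and between 8.11 and 9.02 FPKM. The exonuclease ISG20 lay between 0.932 and 1.28 FPKM. The log2 fold changes of IFI6, IFI35, IFI27, ADAR, EIF2AK2, TRIM25, TRIM21 and ISG20 lay between -0.02 and 0.12, and none was called.

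**Figure D1:**
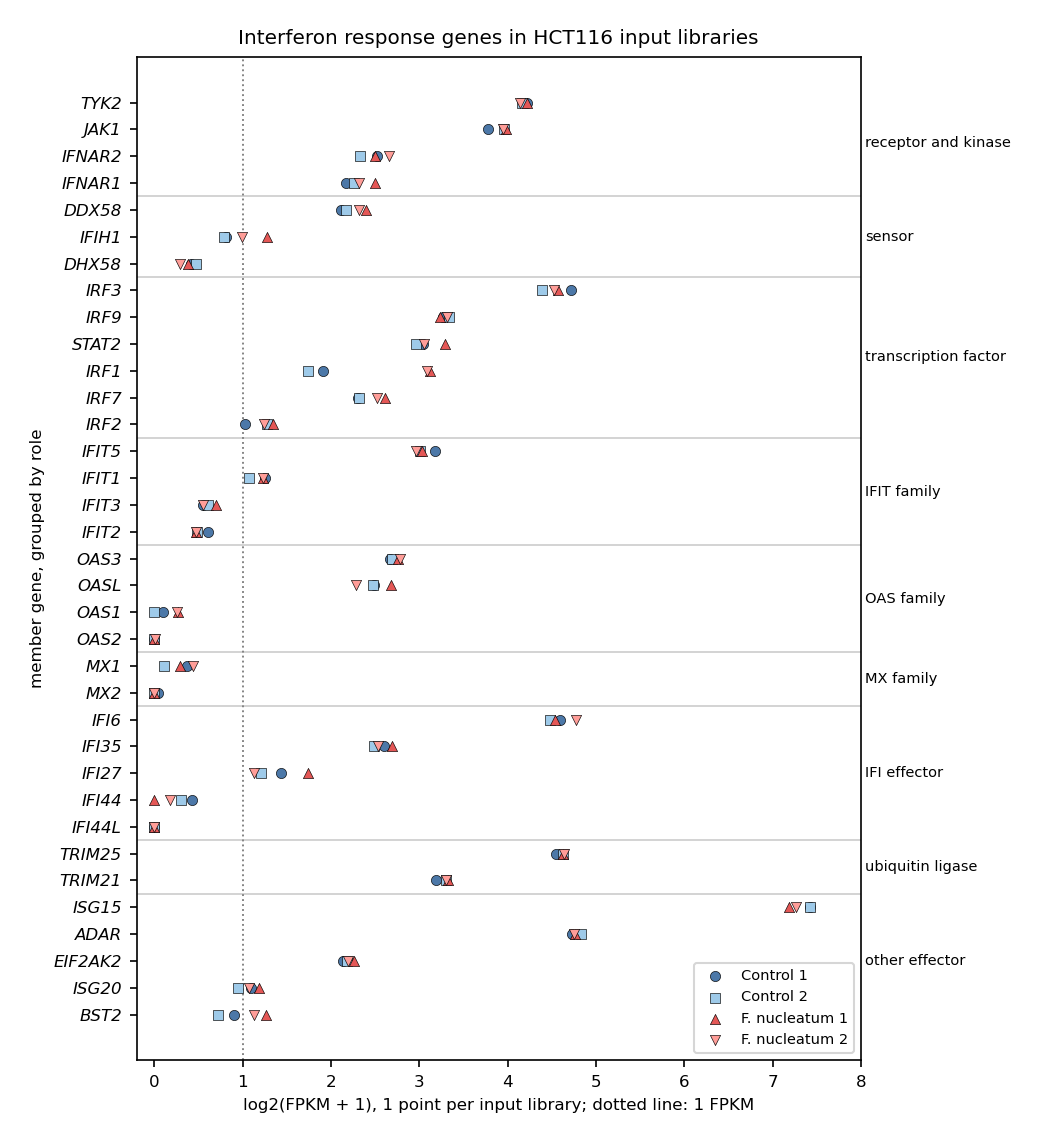
Level of the 35 interferon response genes on the log2(FPKM + 1) scale, with 1 point for each of the 4 input libraries and genes grouped by role. IRF1 is the gene whose Control points (blue, 2.34 and 2.77 FPKM) and F. nucleatum points (red, 7.50 and 7.72 FPKM) stand far apart, and 10 genes have a mean under 1 FPKM, the dotted line.

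Over the 25 tested members, both F. nucleatum libraries were above both Control libraries in 9 and below in 1, where 26.1% of all genes tested were above and 21.1% below. For the 24 members that were not called, the 95% interval of the log2 fold change held 0 in 21, all but BST2, IRF7 and ISG15. Its upper end was under 0.5 in 22 of the 24, and 0.65 in IFI27 and 0.68 in BST2. A rise of 1 on this scale therefore lay outside the interval of each of the 24. With a pseudocount of 1, a gene near 1 FPKM has to rise more than 2-fold to reach 1 on this scale.

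The NF-κB target genes, a list of 35, gave a different picture in the same libraries, although not all of them were expressed. CCL2, IL6, IL1B, LTB and VCAM1 were listed at 0 in every library, and 6 others had a mean under 1 FPKM and were not tested. Of the 24 tested, 14 were called, all higher: NFKBIA, NFKBIZ, TNFAIP3, TNFAIP2, ZC3H12A, BIRC3, CXCL1, CXCL2, CXCL3, CXCL8, CCL20, ICAM1, CD83 and IER3. Their median log2 fold change over the 24 tested was 0.95, against 0.09 for the interferon genes. CXCL8, the chemokine that draws neutrophils, had 0.396 and 0.335 FPKM in Control and 40.8 and 38.9 FPKM in F. nucleatum, and NFKBIA, which encodes the inhibitor IκBα, had 19.6 and 20.7 against 84.8 and 89.1 FPKM. The change of IRF1 lay within the range of the NF-κB genes called, between those of CD83 (1.22) and TNFAIP3 (1.56). Of the 24, 8 passed the filter through 1 group alone, so they had to differ, and with no filter 13 of 30 were called with a median of 0.67. Without F. nucleatum 1 or without F. nucleatum 2 the count fell to 9 or 8. The NF-κB list was drawn up with results of these libraries known and is no independent evidence of their direction.

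**Figure D2:**
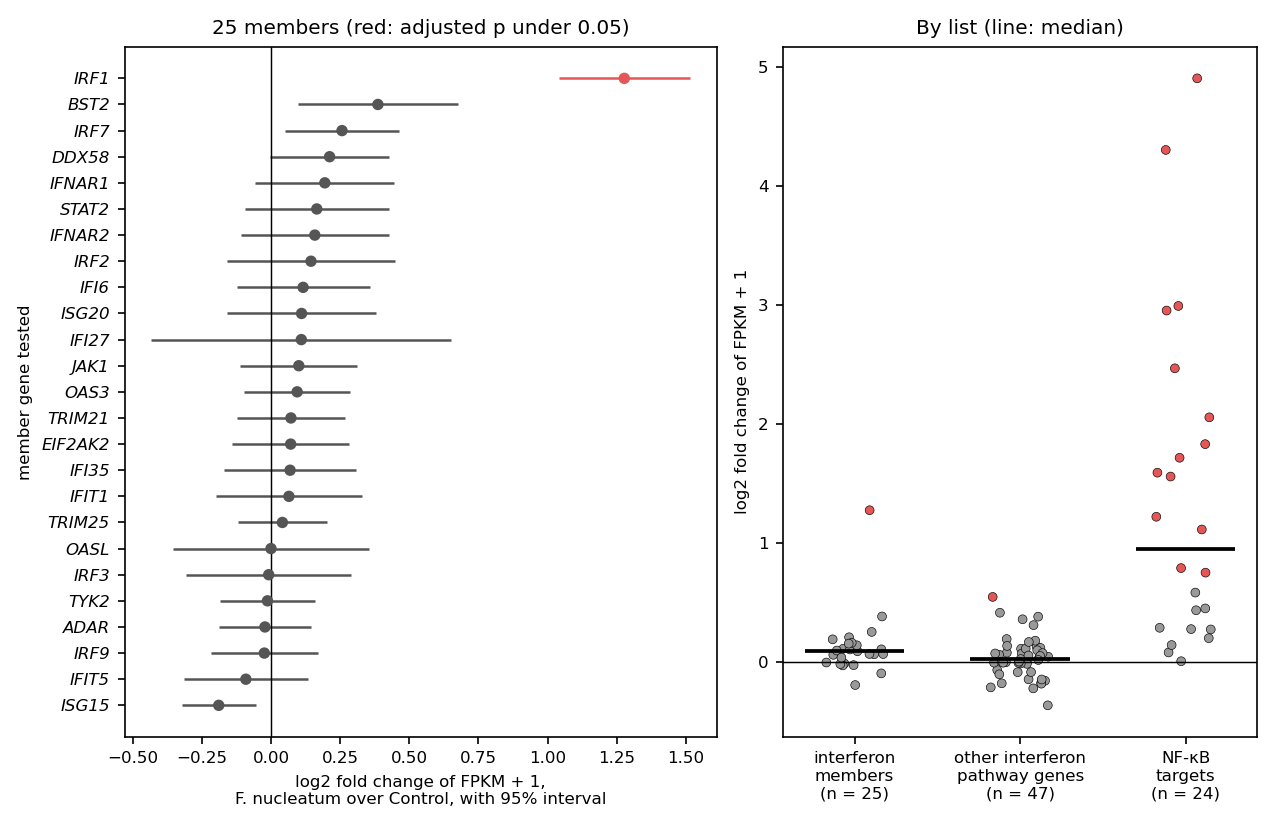
Left, the log2 fold change of FPKM + 1 (F. nucleatum over Control) of the 25 interferon response genes tested, with its 95% interval, where IRF1 (1.28) is the gene in red, called at an adjusted p under 0.05. Right, the same measure for the interferon members, 47 other interferon pathway genes and 24 NF-κB target genes, 1 point a gene and a line at the median (0.09, 0.03 and 0.95).

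The rest of the interferon pathway was read from 77 further genes. Of these, 47 were tested, 1 was called (higher), and the median log2 fold change was 0.03. The interferon genes IFNB1, IFNA2, IFNK, IFNW1, IFNG, IFNL2 and IFNL3 were listed at 0 in every library, IFNA1 had a value only in Control 1 (0.0181 FPKM), and IFNL1 only in F. nucleatum 2 (0.287 FPKM). IFNE lay between 0.0958 and 0.442 FPKM with overlapping groups. No ligand gene therefore had a value in both F. nucleatum libraries and in neither Control library.

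The gene called was TICAM1, which encodes the adaptor TRIF of Toll-like receptors 3 and 4, with 21.3 and 22.0 FPKM in Control and 31.8 and 32.5 FPKM in F. nucleatum. Its log2 fold change was 0.55 (SE 0.06, limma adjusted p = 0.0265), and the limma adjusted p was 0.264 or 0.287 without F. nucleatum 1 or 2, and 0.0613 with no filter on low values. USP18, which removes ISG15 from proteins, had a mean of 2.37 ± 0.389 FPKM (SD, n = 2) in Control and 2.83 ± 0.458 FPKM (SD, n = 2) in F. nucleatum, with overlapping groups. RSAD2, which encodes viperin, lay between 0.0181 and 0.0640 FPKM, and the chemokine genes CXCL10 and CXCL11 were listed at 0 in every library. None of these strongly inducible genes separated the groups at 2 h. That was the only time measured, so a later interferon response could not be seen. The 6 receptor and signal genes all had a positive log2 fold change (median 0.21, none called), with IFNGR2 at 18.8 and 18.5 against 24.4 and 24.2 FPKM (limma adjusted p = 0.106) and IL10RB at 6.33 and 6.51 against 8.56 and 9.27 FPKM (limma adjusted p = 0.143). SOCS1, the feedback inhibitor of JAK kinases, had 0.644 and 0.674 against 1.07 and 1.09 FPKM and was under the filter.

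The libraries had the markers of epithelial cells, although these markers cannot tell HCT116 from another epithelial line. The epithelial markers EPCAM, KRT8, KRT18, KRT19, CDH1 and CLDN7 lay between 11.9 and 2290 FPKM, the defining leukocyte genes PTPRC and CD3E stayed at or below 0.00684 FPKM, and the fibroblast genes COL1A2, LUM and DCN were listed at 0. Of the 12 leukocyte and fibroblast markers, CD68 (7.15 to 9.30 FPKM) and COL1A1 (3.78 to 5.72 FPKM) were the exceptions, and the other 10 stayed at or below 0.216 FPKM. No read counts were given, so the depth behind an FPKM is unknown. The libraries were alike in the number of genes above 0 (14566 to 14816), and none was a copy of another.

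The number of m6A peaks in interferon genes differed between the groups by less than the spread between replicates. The Control lists held 31 and 30 member peaks, and the F. nucleatum lists 33 and 29. Mean counts were 30.5 ± 0.707 peaks (SD, n = 2) in Control and 31 ± 2.83 peaks (SD, n = 2) in F. nucleatum, a difference of 0.5 (two-sided exact permutation test, p = 1, where the smallest p that 2 against 2 allows is 0.333). Peaks fell in 22 of the 35 members, in 18, 19, 20 and 19 members a list, and 16 members had a peak in all 4 lists. Of the 25 tested members, 76% had a peak in a list, as had 83.9% of all genes that passed the same filter. No peak was listed in IFI27, IFI35, IFI44, IFI44L, DHX58, OAS1, OAS2, MX1, MX2, IRF2, IRF7, EIF2AK2 or BST2.

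Same-strand peaks from any of the 4 lists were, if they had at least 1 base in common, merged into 22001 regions, 38 of them in interferon genes. Of the 38, 21 (55.3%) had a peak in all 4 lists, against 51.5% of all regions. By the midpoint, 15 regions lay in the coding sequence, 8 within 100 nt of the stop codon, 11 in the 3′UTR and 4 off the canonical transcript. The lowest listed p-values belonged to TYK2 at the stop codon (chr19:10461204-10463156, between 1.0e-120 and 2.5e-78 over the lists), the coding sequence of IFIT5 (chr10:91174355-91178489, between 2.0e-95 and 5.0e-66) and ADAR. A listed p-value moves with depth and expression as well as with methylation.

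The motif GGAC, the commonest setting of m6A, is shown for regions that hold the findings on peaks. It stood in 72.7% to 80% of the member peaks of a list, against 72.4% to 74.3% of all peaks, while the median length was 270 to 419 nt for member peaks and 300 to 318 nt for all. Each window is read from GRCh37 in the sense of the gene, with GGAC in capitals. TYK2 is at chr19:10461471-10461494 and IFIT5 at chr10:91177672-91177695, regions in all 4 lists, and IRF1 at chr5:131819554-131819576, its single peak. IRF3 is at chr19:50165363-50165386 and IRF9 at chr14:24630524-24630547, regions in Control lists, and IFIH1 at chr2:163174505-163174528, a region in F. nucleatum lists. Which adenosine was methylated was not measured.
TYK2: ctgcctgggaGGACtggaccaggc
IFIT5: aagaaatcctGGACcaaatatcat
IRF1: agagaagctGGACttctgtgggc
IRF3: cctgggtgggGGACtggctctctg
IRF9: gcgacagcctGGACagcaactcag
IFIH1: ctgagctcacGGACttgccctctc

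IRF1 had a peak in 1 list only. It lay in the 3′UTR from 70 to 219 nt after the stop codon (chr5:131819427-131819576) and was listed in F. nucleatum 1 at 2.7e-05 on the scale of the listed p-values. F. nucleatum 2, where the input level of IRF1 was nearly the same (7.50 FPKM), listed no peak, and neither did the Control lists, where the level was 2.34 and 2.77 FPKM. A peak call needs fragments, so whether the mark was absent from IRF1 in Control or not detectable at its lower level cannot be told apart.

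**Figure D3:**
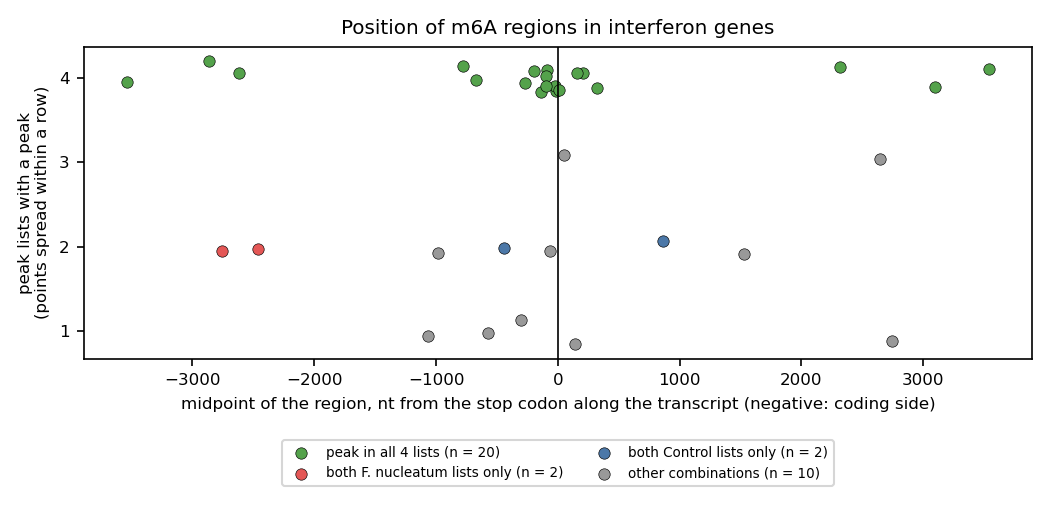
Midpoint of the 34 member regions that lie on a canonical transcript, in nt from the stop codon (x axis), against the number of peak lists with a peak (y axis, points spread within a row). Regions with a peak in all 4 lists (green, 20) gather at the stop codon and reach to both ends, while the regions of both Control lists (blue, 2) and of both F. nucleatum lists (red, 2) are few.

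Regions with a peak in both Control lists and in neither F. nucleatum list numbered 3 of 38 (7.89%), where 2.64% of all regions did the same, and the reverse held for 2 of 38 (5.26%), against 2.38%. When peaks were merged only at a reciprocal overlap of 50%, each class held 1 of 58 member regions (1.72%), against 2.61% and 2.65% of all regions. With Control 1 left out the first class held 4 of 37 (10.8%) against 11.3% of all regions, and the reverse class 10.8% against 4.31%. Without Control 2, F. nucleatum 1 or F. nucleatum 2, the first class held 10%, 8.33% and 8.11% of member regions. All regions had 8.74%, 6.93% and 4.44%. In the same order the reverse class held 5%, 8.33% and 13.5%, against 6.6%, 8.26% and 11.3% of all regions. Whether the member share lay above or below that of all regions thus changed with the setting. The 3 of 38 were in IRF3 (chr19:50164095-50165498, coding sequence, listed at 0.00085 and 1.1e-06), IRF9 (chr14:24630452-24631467, at the 5′ end, 0.0035 and 1.7e-05) and IFNAR2 (chr21:34636579-34636758, 3′UTR, 0.002 and 0.0032). The 2 of 38 were in IFIH1 (chr2:163167397-163174678, coding sequence, listed at 0.0021 and 0.005) and JAK1 (chr1:65330559-65332632, coding sequence, 9.3e-05 and 0.0017). Of these 10 listed p-values, 1 was at most 1e-05, so with that limit on the lists no member region was left in either class, whereas 17 member regions still had a peak in all 4 lists. IRF3, IFNAR2 and JAK1 each kept another region with a peak in all 4 lists. The level of IRF9, IRF3, IFNAR2 and JAK1 overlapped between the groups, while IFIH1 was higher in both F. nucleatum libraries, and the part of its level in the 2 peaks was not tested. The 2 IFIH1 peaks lay side by side and shared no more than a base.

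Some of these genes overlap other gene models. Over the whole canonical transcript, IRF9 shares 93.1% of its exon bases with a readthrough model on the same strand, and 14.2% of the exon bases of IRF3 lie opposite BCL2L12, which runs the other way. Antisense models also lie opposite 44% of the exon bases of IFNAR2 and 18.9% of those of IRF9. Whether these overlaps lie at the peaks themselves was not tested.

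The region of ISG15 spans the stop codon (chr1:949601-949919) and had a peak in all 4 lists, where Control 1 and 2 listed it at 1.3e-30 and 5.0e-37 on the scale of p-values. The F. nucleatum lists gave 0.0022 and 1.3e-13. Its peaks covered 319 and 290 nt in Control, against 87 and 261 nt after the bacterium. The p-values were higher in both F. nucleatum lists than in both Control lists, and the input level of ISG15 was 12.4% lower there, whose part in the difference was not tested. Among the 21 regions with a peak in all 4 lists, those of IFNAR1 at chr21:34725996-34728484 and ADAR at chr1:154574852-154578501 went the same way. The regions of ADAR at the stop codon, IFI6, JAK1 (3′UTR), OAS3 (3′UTR) and STAT2 (coding sequence) had lower p-values in both F. nucleatum lists. The other regions were mixed. How many of all 11341 regions with a peak in all 4 lists were ordered in either way was not counted. These orders are therefore a description and no result about the members.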

How the data were processed

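The 4 input and 4 IP libraries were grouped by the sample labels. The authors aligned reads to hg19 with HISAT2 2.1.0 and deposited StringTie FPKM of the input libraries, per the labels and the methods. The submitters' processing notes name Trim Galore 0.3.3. The authors called peaks per replicate, IP against input, and deposited 1 value per peak, read here as their p-value. The methods name MACS2, whereas the layout with exon blocks is that of exomePeak, and the caller was not settled.

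Genes whose mean reached 1 FPKM were tested with limma 3.58.1 (trend) in R 4.3.3 on log2(FPKM + 1), adjusted over all 11088. The count model of the methods cannot use FPKM. The steps were tested on simulated data. The ratio of low values gave a depth of 0.914 to 1.24 relative to Control 1, shared by 4 to 7 genes only. Lost and gained in the figures mean a peak in both Control or both F. nucleatum lists alone. Positions used GENCODE on GRCh37. Members and lists were chosen with earlier results of these data known. Values per library were given for members called, with groups apart by at least 0.25 on the log2 scale, or with a region lost or gained, and for others by role. The limma p-values rest on the spread between 2 replicates a group, with variance shared in part over all tested genes. A listed peak p-value comes from 1 IP library against its input and holds no spread between replicates. Some items among the listed genes and promoter windows are not reported here.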

Additional observations from a re-analysis of the deposited data

How the results depend on the processing

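With 2 libraries a group, limits come from replicate number and from unknown depth. IRF1 was the member called with a pseudocount of 0.1, no filter, quantile normalization, no trend, GC correction, the replicate block and the block with GC correction (limma adjusted p between 0.00496 and 0.0431). Leaving out single libraries gave 0 to 1 members called, 8 to 15 NF-κB genes called, a member median of 0.0555 to 0.124, a difference in member peaks of -1.5 to 2.5, 3 to 4 regions lost (8.11% to 10.8% of member regions, against 4.44% to 11.3% of all) and 2 to 5 gained (5% to 13.5%, against 4.31% to 11.3%). The member median was 0.0493 after quantile normalization and 0.08 without IRF1, an alternative chosen after seeing the data. With listed p-values of at most 1e-05, member peaks differed by -1.5, with 0 regions lost and 0 gained, and with a reciprocal overlap of 50% 1 was lost and 1 gained (1.72% each, against 2.61% and 2.65% of all regions). The log2 fold change of IRF3 turned to 0.0003 after quantile normalization and 0.0247 after GC correction, with or without the block. It ranged from -0.179 to 0.162 with single libraries left out, and that of IRF9 from -0.0629 to 0.0135.

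No pairing of the libraries by replicate number was seen (correlation of deviations from the group mean 0.0243 for equal numbers). The value for crossed numbers (-0.0243) is its negative by construction with 2 libraries a group, so it adds no information. With the replicate block, 1 member and 14 NF-κB genes were called and the limma adjusted p of IRF1 was 0.00496. TICAM1 was not called with no filter (limma adjusted p = 0.0613), without trend (0.0589), or with GC correction and the replicate block (0.0521).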

Other observations

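Antigen presentation by MHC class I is another arm of the interferon response, and 12 of its genes were on the list of further pathway genes. Of these, 10 were tested and 0 were called by limma at an adjusted p under 0.05. B2M, the light chain of class I molecules, had 373 and 406 FPKM in Control and 453 and 440 FPKM in F. nucleatum. PSMB10, a subunit of the immunoproteasome, had a mean of 27 ± 3.84 FPKM (SD, n = 2) in Control and 20.7 ± 1.09 FPKM (SD, n = 2) in F. nucleatum. These 2 genes had an unadjusted p under 0.05 and were chosen after their values were seen. B2M was higher and PSMB10 was lower in both F. nucleatum libraries than in both Control libraries, with limma adjusted p of 0.288 and 0.285. PSMB8, another subunit of the immunoproteasome, was listed at 0 in every library.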
